A study of Mus musculus with 6 samples.

Results

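The clustered protocadherins are cell adhesion proteins of the cadherin superfamily, encoded by 3 neighbouring gene clusters named alpha, beta and gamma on mouse chromosome 18. All genes of the deposited table whose symbols belong to these clusters were taken, 59 of 24060 genes, of which 15 are alpha, 22 beta and 22 gamma members. RNA-seq counts of retinal ganglion cells (RGCs), the neurons that carry the output of the retina through the optic nerve, were compared between embryonic mice (E18, 3 samples, replicates 1, 3 and 4) and early postnatal mice (P5, 3 samples, replicates 6, 8 and 9). All samples came from C57BL/6 mice with no transgene, injury or treatment named, after papain dissociation, removal of macrophages and panning on antibodies against CD90 (Thy1). A name in the count table gives E18 replicate 1 the numbers 1, 2 and 5, so a pool of preparations cannot be told apart from a single one. No label says that the samples came from separate animals, so p-values measure the spread between these samples, which may be technical. The design asks how the transcriptome of RGCs differs between the embryonic and the postnatal state.

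Each clustered protocadherin isoform has its own promoter, and a neuron transcribes a small, largely random choice of them. The proteins pair on the membrane of a cell, and the pairs recognise the same combination on another cell or on a sister branch, which lets dendrites of a neuron avoid each other. In the retina the gamma cluster is known for self-avoidance of starburst amacrine dendrites and for the survival of interneurons and RGCs. The last genes of the alpha and gamma clusters, the C-type isoforms Pcdhac1, Pcdhac2, Pcdhgc3, Pcdhgc4 and Pcdhgc5, are controlled apart from the others and are less subject to random choice.

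On the plus strand of GRCm38, the genome that mm10 names, the alpha genes span positions 36930285 to 37188897, the beta genes 37264998 to 37521419 and the gamma genes 37661775 to 37841873. Every tested alpha and gamma gene has 4 exons in its reference transcript, of which 3 are shared by the whole cluster and encode the common cytoplasmic end, while the large first exon encodes the extracellular, transmembrane and proximal parts of that isoform alone. Beta genes have 1 exon and share none. A read on a shared exon cannot be given to an isoform, and the overlap setting of the counting is not given in the sources used here. The lowest alpha member, Pcdha4, stood at 1.81 to 2.82 CPM (read counts scaled to a common library size, here 1000000 reads after TMM normalization) in the 6 samples, and the lowest gamma members, Pcdhgb8 and Pcdhgc5, at 2.58 to 5.24 CPM and 2.83 to 3.71 CPM. If shared-exon reads were added alike to every member of a cluster, their number could not exceed these levels. An unequal addition is not bounded by them, and whether any such reads were added was not tested. The alpha level is that of Pcdha4, whose count is itself uncertain, as described below. Lengths used below are those of the stretch that each gene shares with no other, 2382 to 2853 bases in the alpha, 2340 to 5271 in the beta and 2499 to 2961 in the gamma cluster.

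Isoforms are close paralogs, so the letters of their unshared stretches were compared. Of 58 members, 27 had no run of 100 bases, the length of a read, in common with another member, and 10 had more than 5% of such runs in common, at most 13.6% (Pcdha11). Beta members reached at most 2.48%. Antisense transcripts of the annotation lie over the stretch of 4 alpha, 1 beta and 8 gamma members, among them Pcdha4, Pcdhb12, Pcdhga11 and Pcdhgc3, and without a stated strand setting their reads cannot be told apart from those of the isoform. The remaining member, Pcdha4-g, was listed at 0 in all 6 samples. Its symbol belongs to a read-through transcript annotated from 36952648 to 37841873 on chromosome 18, which starts with the first exon of Pcdha4, so the Pcdha4 count is uncertain.

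Between 81213639 and 114512853 reads were counted on genes per sample, of which the members took 79136 to 110577. RGC markers were abundant at both ages, with summed levels of 9900 to 11605 CPM at E18 and 10084 to 11113 CPM at P5 over 15 markers. Single markers changed in opposite directions, with 5 higher and 5 lower at E18 (66.7% called, beside 43.4% of all genes tested). Mean levels at E18 and P5 were 247 and 553 CPM for Thy1, the panning antigen, and 557 and 260 CPM for Isl1. Markers of other cells differed between the E18 samples. The 12 retinal progenitor markers summed to 319, 161 and 45.7 CPM in E18 replicates 1, 3 and 4 against 27.1 to 40.3 CPM at P5, and 6 of them were higher at E18. The 14 markers of dividing cells summed to 350, 142 and 89.6 CPM against 69.3 to 86.9 CPM, with 9 higher at E18. Of the 11 amacrine markers 5 were higher and 1 lower at E18, with sums of 1492 to 1707 CPM and 1790 to 2005 CPM that Calb2 and Pax6 dominate. The called share of the markers tested was 50% for progenitors, 64.3% for dividing cells and 60% for amacrine cells, beside 43.4% of all genes tested. The amacrine factor Tfap2b stood at 47.5 and 119 CPM in E18 replicates 1 and 3, at 1.62 CPM in replicate 4 and at no more than 1.55 CPM at P5. The marker sums at E18 and P5 were 56.3 to 81.9 and 84.6 to 116 CPM for bipolar cells, 5.67 to 18.6 and 17.8 to 24.9 for photoreceptors, 405 to 453 and 274 to 327 for Müller glia with astrocytes, 19.3 to 21.8 and 23.6 to 33.8 for microglia, 93.9 to 94.4 and 56.4 to 75.5 for oligodendrocytes, and 16.5 to 72.8 and 14.6 to 17.9 for endothelial cells with pericytes. Thrb, the largest photoreceptor marker, stood at mean levels of 1.51 CPM at E18 and 16.7 CPM at P5. Of the photoreceptor markers 4 were higher and 2 lower at E18 (60% called). Kdr, the largest endothelial marker, stood at 48.8 and 7.60 CPM, and that list had 1 higher and 3 lower (50%). Higher and lower calls were 2 and 4 for bipolar cells (85.7%) and 3 and 0 for Müller glia with astrocytes (30%). They were 1 and 1 for microglia (25%) and 1 and 2 for oligodendrocytes (42.9%). In RNA from a mixture, fewer cells of a type and less RNA per cell cannot be told apart. The part of these cells in the protocadherin results was not tested, but results are given below with and without E18 replicates 1 and 3.

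Of the 58 members with counts, all passed the expression filter, and 26 differed between the ages at an adjusted p under 0.05 by the quasi-likelihood test of edgeR, 9 higher and 17 lower at E18. That is 44.8% of the members, beside 43.4% of all 16449 genes tested (20.8% higher and 22.5% lower). The clusters differed in the direction of their calls. Of 14 alpha members 4 were lower and 0 higher at E18 (28.6% called, beside 43.4% of all genes tested). Of 22 beta members 11 were lower and 0 higher (50%). Of 22 gamma members 9 were higher and 2 lower (50%). At an unadjusted p under 0.05 the edgeR counts of higher alpha and beta members were 0 as well, and DESeq2 called none of them higher either. Whether the clusters differ from each other was not tested. The median log2 fold change of E18 over P5, where a positive value is higher at E18, was -0.17 in the alpha, -0.42 in the beta and 0.29 in the gamma cluster, beside 0.0047 over all genes tested. The samples of the ages did not overlap for 36 members (62.1%), 15 with E18 on the higher and 21 with E18 on the lower side, beside 56.1% of all genes tested.

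The number of calls depended on single samples, as it did over all genes. It was 15 without E18 replicate 1, 13 without E18 replicate 3, 17 without P5 replicate 6 and 17 without P5 replicate 9, against 26 with all samples. Without E18 replicate 3, calls over all genes fell to 2137 higher and 2438 lower of 16775. With E18 replicate 4 alone against P5, an alternative chosen after the data were seen in which the lone sample is assumed to vary like the P5 samples, 3 members were called (Pcdhb9, Pcdhb12 and Pcdhgc4) and calls over all genes fell to 656 higher and 977 lower of 17227. No called member changed sign in any of the 12 alternative settings. That adds little, since the samples of the ages did not overlap for any called member, and leaving out a sample could hardly reverse it. Of the 26, 13 were called in all of the alternative settings in which they were tested, 1 alpha, 8 beta and 4 gamma members.

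**Figure D1:**
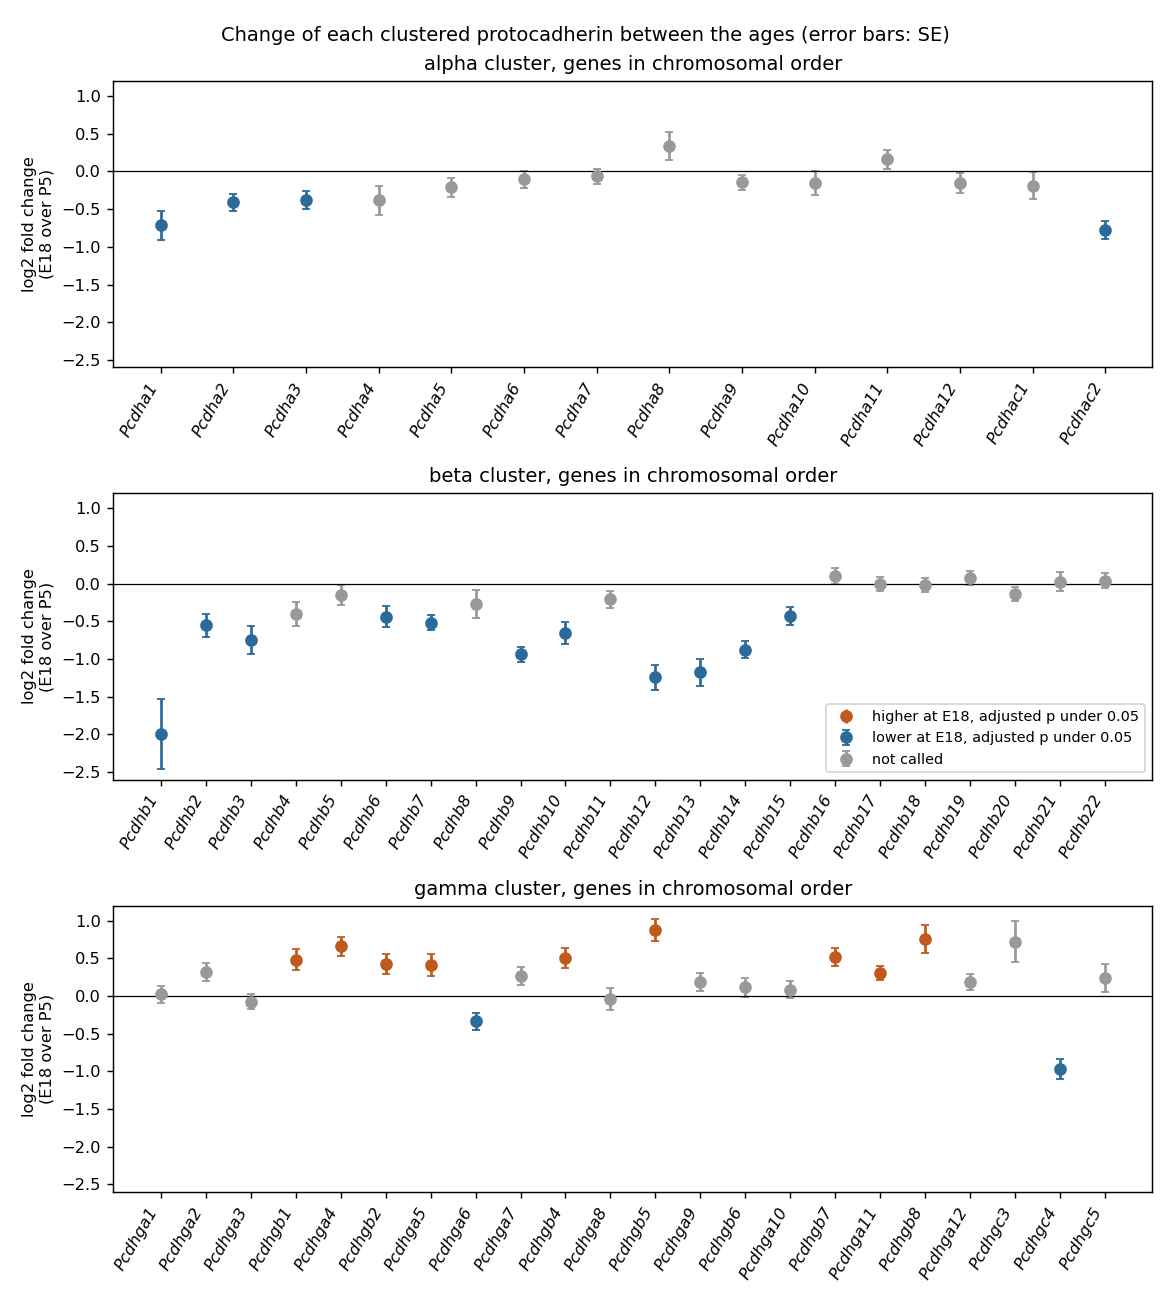
Log2 fold change of E18 over P5 (vertical axis) of each tested alpha, beta and gamma gene in chromosomal order (horizontal axis), with the standard error of the edgeR fit as bars and colour for the call at an adjusted p under 0.05. Called alpha and beta genes lie below 0, Pcdhb16 to Pcdhb22 lie near 0, and the 9 gamma genes called higher lie above 0 while Pcdhgc4 lies lowest in its cluster at -0.97.

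Levels of isoforms within a cluster can be compared per kilobase of unshared stretch. The mean level over both ages ran from 0.942 to 23.1 CPM per kilobase in the alpha, from 0.0633 to 16.2 in the beta and from 1.32 to 26.0 in the gamma cluster, with medians of 5.46, 5.44 and 4.47. Pcdhac2 led the alpha cluster at 17.0 CPM per kilobase at E18 and 29.1 at P5, ahead of Pcdha7 at 10.1 and 10.5. Pcdhb17 led the beta cluster at 16.1 and 16.2 CPM per kilobase, followed by Pcdhb9 at 7.73 and 14.8 and Pcdhb22 at 8.74 and 8.52. Pcdhgc4 led the gamma cluster at 17.6 and 34.5 CPM per kilobase, followed by Pcdhga11 at 14.8 and 11.95 and Pcdhgb6 at 12.3 and 11.4. Every tested isoform had reads in all 6 samples, and Pcdhb1 was the lowest. The samples of one age were close to each other, with a median coefficient of variation over the tested members of 5.54% at E18 and 8.00% at P5, beside 7.14% and 14.01% for 6026 other genes of similar level.

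**Figure D2:**
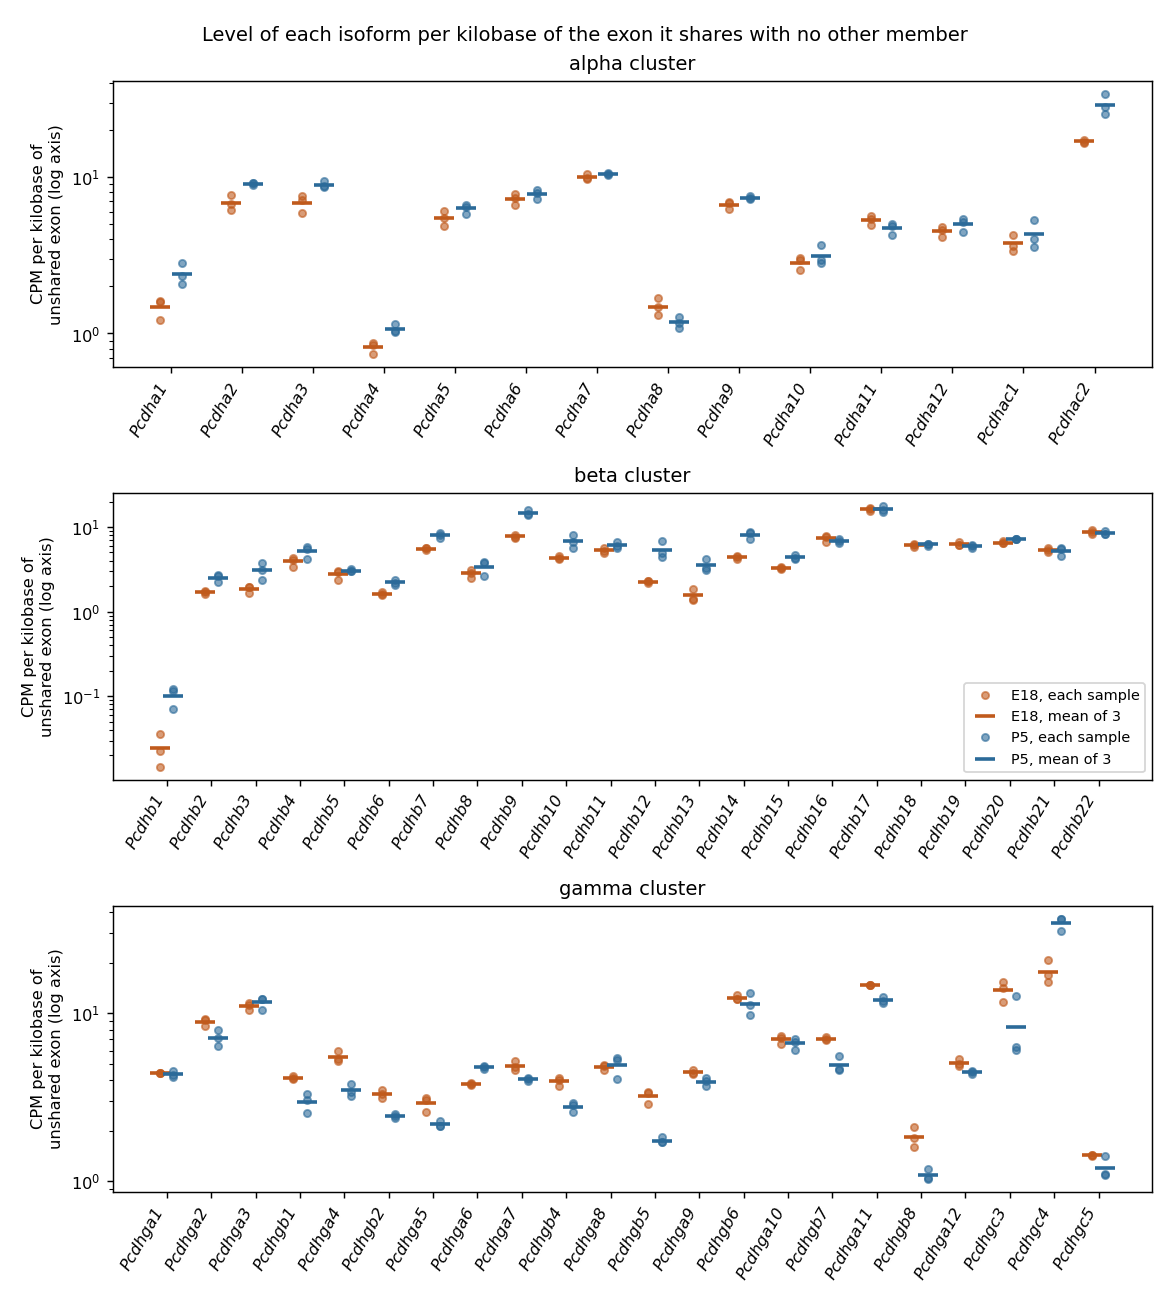
Level of each isoform in CPM per kilobase of the exon stretch that no other member shares (vertical log axis) at E18 and P5, with a point for each sample and a dash for the mean of 3, in chromosomal order. Pcdhac2 and Pcdhgc4 stand highest at P5 in their clusters, at 29.1 and 34.5 CPM per kilobase, and Pcdhb1 lies below 0.2 CPM per kilobase in all samples.

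In the alpha cluster the summed level was 206, 193 and 216 CPM in the E18 samples and 248, 282 and 252 CPM in the P5 samples. All E18 samples were below all P5 samples, with a ratio of 0.786 of E18 to P5. Without the C-type isoforms, the other 12 summed to 147 ± 9.97 CPM at E18 and 167 ± 3.96 CPM at P5 (SD, n = 3). The C-type gene Pcdhac2 had mean levels of 48.5 and 83.2 CPM, a larger difference than that of the other 12 together.

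The 4 called alpha members were Pcdhac2 and the first 3 genes in chromosomal order. Pcdha1 was at 3.77, 2.90 and 3.85 CPM at E18 and at 4.96, 5.61 and 6.72 CPM at P5 (log2 fold change -0.72 ± 0.20 SE, adjusted p = 0.0182 by edgeR). Pcdha2 was at 16.8, 15.5 and 19.2 CPM at E18 and at 22.3, 23.1 and 23.0 CPM at P5 (-0.41 ± 0.11, adjusted p = 0.0190). Both were lower in every E18 sample than in any P5 sample, as was Pcdha3 (-0.38 ± 0.12, adjusted p = 0.0349), named after its value was seen. These 3 calls did not survive the loss of single samples. The adjusted p of Pcdha1 was 0.0824 without E18 replicate 3 and 0.0605 without P5 replicate 9, that of Pcdha2 was 0.0776 without E18 replicate 1 and 0.0933 without E18 replicate 3, and that of Pcdha3 reached 0.146 in its 4 losses, without E18 replicates 1 or 3 or P5 replicates 6 or 9. The calls in the cluster were 4 with all samples, 2 when either E18 replicate 1 or P5 replicate 9 was left out, and 1 when E18 replicate 3 was left out.

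The remaining alpha isoforms did not pass the test. Pcdha7, the most abundant per kilobase of the alternating isoforms, was at 24.0 to 26.0 CPM at E18 and 25.6 to 26.4 CPM at P5, with overlapping samples (log2 fold change -0.07 ± 0.09). Pcdha4 was at 1.81, 2.09 and 2.14 CPM at E18 and 2.52, 2.82 and 2.54 CPM at P5, lower in every E18 sample but short of the threshold (adjusted p = 0.135 by edgeR). Pcdha8, the second lowest per kilobase, was at 3.50, 4.01 and 3.11 CPM at E18 and 2.59, 2.76 and 3.05 CPM at P5 (adjusted p = 0.176). It is 1 of only 2 alpha isoforms with a positive fold change, the other being Pcdha11. Across the 12 alternating isoforms, Spearman's rho between chromosomal order and log2 fold change was 0.71, a description only, since the genes come from the same 6 libraries and neighbours share sequence.

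In the beta cluster the summed level was 363, 387 and 378 CPM at E18 and 473, 433 and 481 CPM at P5, lower in every E18 sample, with a ratio of 0.813 of E18 to P5. Beta isoforms lack the shared cytoplasmic end and pair with alpha and gamma isoforms on the membrane. Of 22 genes 18 had a negative fold change and 11 passed the test, all lower at E18. Pcdhb12, Pcdhb13 and Pcdhb9 changed most among those above 1 CPM.

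Pcdhb9 was at 23.4, 22.8 and 24.6 CPM at E18 and at 43.7, 42.7 and 48.8 CPM at P5, a 1.91-fold higher level at P5 (log2 fold change -0.93 ± 0.10, adjusted p = 0.000359 by edgeR). Pcdhb12 was at 6.55, 7.05 and 7.04 CPM at E18 and at 14.8, 13.5 and 20.5 CPM at P5 (-1.24 ± 0.17, adjusted p = 0.000989). Pcdhb13 was at 5.20, 5.13 and 6.89 CPM at E18 and at 11.98, 11.5 and 15.4 CPM at P5 (-1.18 ± 0.18, adjusted p = 0.00153). In each of the 3 genes the highest E18 sample lay well below the lowest P5 sample, and the calls held in all 12 alternative settings. Pcdhb1, the first beta gene, had 3, 10 and 5 reads at E18 and 25, 17 and 28 reads at P5, too few for a precise ratio (-1.99 ± 0.47, adjusted p = 0.00954). Pcdhb6, the second lowest per kilobase, was at 5.63, 5.75 and 6.16 CPM at E18 and 7.85, 7.43 and 8.49 CPM at P5 (-0.44 ± 0.14, adjusted p = 0.0327). The other 6 called genes, Pcdhb2, Pcdhb3, Pcdhb7, Pcdhb10, Pcdhb14 and Pcdhb15, had log2 fold changes of -0.88 to -0.43, the largest in Pcdhb14, which was at 14.3, 15.4 and 15.8 CPM at E18 and 29.8, 24.5 and 29.0 CPM at P5. Of these 6, Pcdhb2 missed the threshold without E18 replicates 1 or 3 or P5 replicates 6 or 9 (adjusted p up to 0.0728), and Pcdhb15 without any of the E18 replicates or P5 replicate 9 (up to 0.0818). The adjusted p of Pcdhb6 rose to 0.119 without E18 replicate 1, 0.119 without E18 replicate 3, 0.0650 without E18 replicate 4, 0.0600 without P5 replicate 6 and 0.0875 without P5 replicate 9.

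The position of the calls within the beta cluster stood out after the values were seen, and gets no test for that reason. All 11 lay among the first 15 genes, Pcdhb1 to Pcdhb15, whose fold changes were all negative with a median of -0.55. These 15 genes summed to 152, 163 and 166 CPM at E18 and to 252, 222 and 273 CPM at P5, without overlap. None of the last 7 genes, Pcdhb16 to Pcdhb22, was called by edgeR, DESeq2 or any other alternative, 0 had an unadjusted p under 0.05 in edgeR, and their median was 0.02. They summed to 211, 224 and 212 CPM at E18 and to 221, 211 and 208 CPM at P5, so the samples of the ages overlapped. Pcdhb17, the most abundant beta isoform, was at 50.8, 52.9 and 54.6 CPM at E18 and 57.4, 52.5 and 49.5 CPM at P5 (-0.01 ± 0.09, adjusted p = 0.944 by edgeR). Pcdhb22 was likewise at 25.4 to 28.2 CPM at E18 and 25.2 to 27.7 CPM at P5 (0.04 ± 0.10). Over the whole cluster, rho between order and log2 fold change was 0.63 (22 genes, description only).

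In the gamma cluster the summed level was 385, 386 and 381 CPM at E18 and 342, 409 and 377 CPM at P5. The E18 samples lay within the P5 range, and the ratio of E18 to P5 was 1.02. Within this sum changes went in opposite directions. Of 22 genes 18 had a positive fold change while the most abundant, Pcdhgc4, was lower at E18. Gamma isoforms fall into types A, B and C by sequence, and the groups are given in turn.

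Of 7 gamma B isoforms 6 were higher at E18 (85.7% called, beside 43.4% of all genes tested, 20.8% higher). The 7 isoforms summed to 91.1, 93.9 and 90.1 CPM at E18 and 63.0, 78.1 and 68.9 CPM at P5, without overlap. Pcdhgb5 was at 8.66, 8.79 and 7.45 CPM at E18 and at 4.41, 4.74 and 4.43 CPM at P5, a 1.83-fold higher level at E18 (log2 fold change 0.87 ± 0.15, adjusted p = 0.00227 by edgeR). Pcdhgb8 was at 4.52, 5.24 and 4.00 CPM at E18 and at 2.61, 2.98 and 2.58 CPM at P5 (0.75 ± 0.19, adjusted p = 0.0121, and 0.0665 without E18 replicate 3). Pcdhgb7 was at 17.96, 18.6 and 18.04 CPM at E18 and 12, 14.4 and 11.8 CPM at P5, and with Pcdhgb1, Pcdhgb2 and Pcdhgb4 it had a log2 fold change of 0.43 to 0.52. The last 3 lost their calls in 3 to 6 of 12 alternatives, all 3 without E18 replicate 1, E18 replicate 3 or P5 replicate 6, with adjusted p up to 0.0878, 0.130 and 0.0716. In addition, 9.84% and 10.8% of the read-length runs of Pcdhgb1 and Pcdhgb2 occur in another member. The exception was the most abundant of the type, Pcdhgb6, at 31.0, 31.1 and 32.7 CPM at E18 and 24.9, 33.9 and 28.7 CPM at P5, where P5 replicate 8 exceeded all E18 samples (0.12 ± 0.13, adjusted p = 0.478).

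Of 12 gamma A isoforms 3 were higher and 1 lower at E18 (33.3% called, beside 43.4% of all genes tested), with a median of 0.18. The 12 isoforms summed to 205, 204 and 197 CPM at E18 and 171, 189 and 185 CPM at P5. Pcdhga4 was at 13.9, 15.3 and 13.4 CPM at E18 and at 8.80, 9.79 and 8.33 CPM at P5 (log2 fold change 0.66 ± 0.13, adjusted p = 0.00397 by edgeR). Pcdhga11, the most abundant of the type, was at 38.3, 38.2 and 38.4 CPM at E18 and at 30.0, 32.3 and 30.8 CPM at P5 (0.30 ± 0.09, adjusted p = 0.0232). The third rise was Pcdhga5 (0.42 ± 0.15, adjusted p = 0.0474), named after its value was seen, which was called in 3 of 12 alternatives and reached an adjusted p of 0.158 in the others, among them the loss of any E18 sample. Pcdhga6 went the other way, at 9.58, 9.78 and 9.66 CPM at E18 and 12.4, 12.3 and 11.9 CPM at P5 (-0.34 ± 0.11, adjusted p = 0.0389). The samples of the ages did not overlap for any of these 4 genes.

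The calls of Pcdhga11 and Pcdhga6 were lost on leaving out any single sample other than P5 replicate 8, without which the adjusted p was 0.00957 for Pcdhga11 and 0.0241 for Pcdhga6 by edgeR. Without E18 replicate 1, 3 or 4 the adjusted p of Pcdhga11 was 0.0850, 0.0857 or 0.0775, and without P5 replicate 6 or 9 it was 0.0669 or 0.0525. For Pcdhga6 it was 0.141, 0.125 or 0.110 without E18 replicate 1, 3 or 4 and 0.0713 or 0.0619 without P5 replicate 6 or 9. The 9 higher gamma calls became 4 without E18 replicate 1, 3 without E18 replicate 3, 5 without E18 replicate 4 and 4 without P5 replicate 6. All gamma calls together fell from 11 to 5, 4 and 6 without E18 replicates 1, 3 and 4, and to 5 and 7 without P5 replicates 6 and 9.

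**Figure D3:**
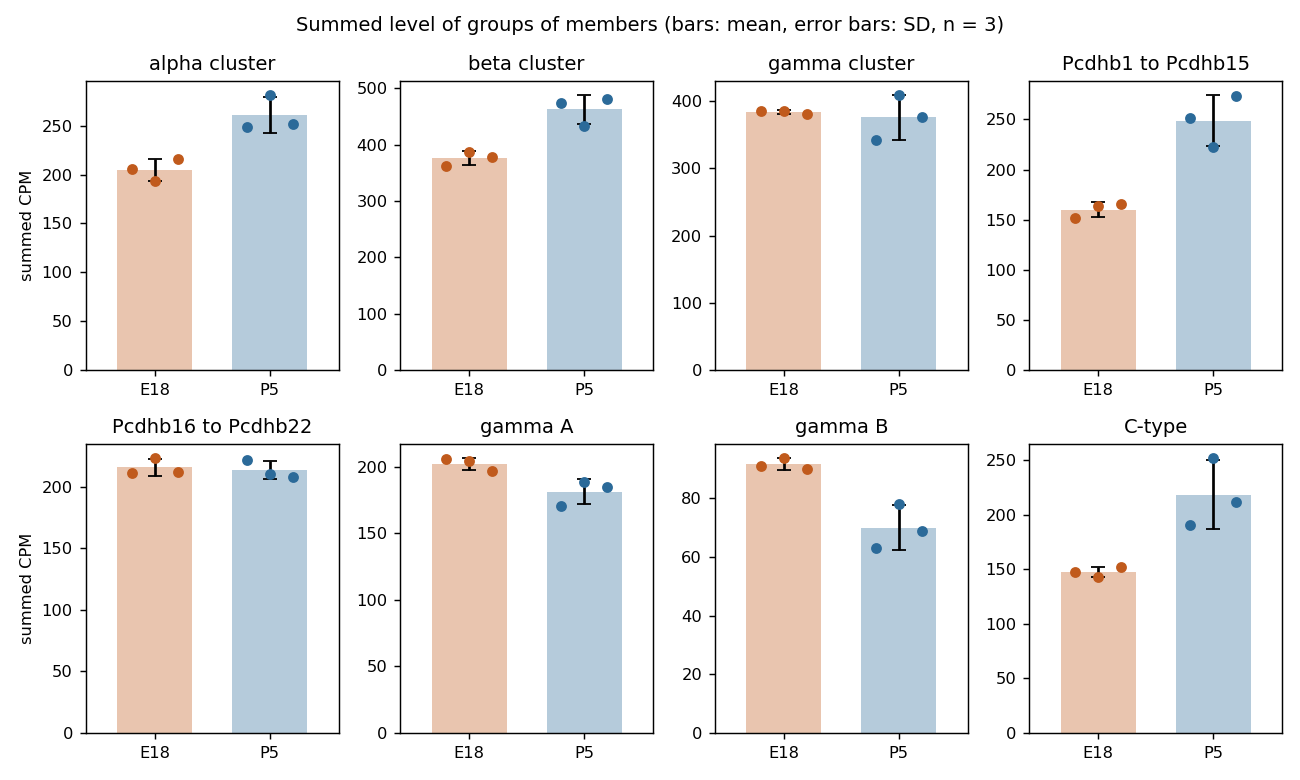
Summed level in CPM (vertical axes, from 0) of the 3 clusters and of groups within them at E18 and P5, with a point for each sample, bars for the mean of 3 and error bars for the SD. The sums of the alpha cluster, the beta cluster, Pcdhb1 to Pcdhb15 and the C-type isoforms are lower in every E18 sample than in any P5 sample, those of gamma A and gamma B are higher, and those of the whole gamma cluster and of Pcdhb16 to Pcdhb22 overlap.

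The C-type isoforms did not move together. Pcdhgc4, the isoform known to be needed for the survival of many neurons, was at 49.1, 44.3 and 59.9 CPM at E18 and at 89.4, 106 and 105 CPM at P5, a 1.96-fold higher level at P5 (log2 fold change -0.97 ± 0.13, adjusted p = 0.000885 by edgeR). Pcdhac2, known for the tiling of serotonergic axons, was at 48.2, 47.6 and 49.7 CPM at E18 and at 72.2, 97.3 and 79.97 CPM at P5, a 1.71-fold higher level at P5 (-0.78 ± 0.12, adjusted p = 0.00147). Both calls held in all 12 alternative settings, and no E18 sample reached the lowest P5 sample. With E18 replicate 4 alone the log2 fold changes were -0.73 for both, with an adjusted p of 0.0482 for Pcdhgc4 and 0.0693 for Pcdhac2.

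Pcdhgc3, which binds Axin1 and promotes dendrite branching in cortical neurons, was at 36.1, 39.3 and 30.1 CPM at E18 and at 16.1, 32.4 and 15.5 CPM at P5 (log2 fold change 0.72 ± 0.27, adjusted p = 0.0568 by edgeR). P5 replicate 8 stood at the E18 level. The call depended on that sample, on the test and on the filter. Without P5 replicate 8 the log2 fold change was 1.14 with an adjusted p of 0.000683 by edgeR. With all samples, DESeq2, edgeR's exact test and the fit without a filter on low counts also called the gene (adjusted p = 0.0127, 0.0255 and 0.0336). Pcdhac1, which needs another isoform to reach the cell surface, was at 10.5, 8.25 and 8.90 CPM at E18 and 9.81, 13.0 and 8.71 CPM at P5 (adjusted p = 0.413 by edgeR). Pcdhgc5, known to bind subunits of a GABA receptor, was the lowest of the gamma cluster per kilobase, at 3.69, 3.71 and 3.70 CPM at E18 and 2.83, 3.68 and 2.88 CPM at P5 (adjusted p = 0.319). P5 replicate 8 was the highest P5 sample for each of the 5 C-type isoforms.

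**Figure D4:**
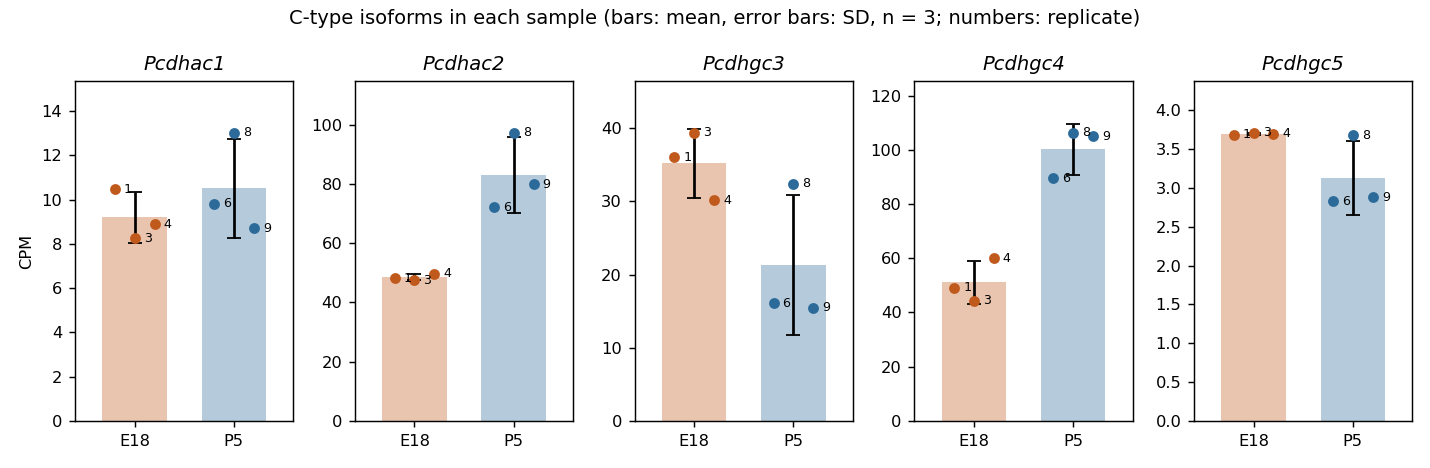
Level in CPM (vertical axes, from 0) of the 5 C-type isoforms at E18 and P5, with a numbered point for each replicate, bars for the mean of 3 and error bars for the SD. Pcdhac2 and Pcdhgc4 are lower in all E18 samples, and for Pcdhgc3 P5 replicate 8, at 32.4 CPM, lies among the E18 samples while the other P5 samples lie at 16.1 and 15.5 CPM.

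The clusters also differed in their share of the protocadherin reads. All members together summed to 954, 966 and 974 CPM at E18 and to 1063, 1123 and 1110 CPM at P5. The gamma cluster took 39.8% ± 0.661 of the reads of all members at E18 and 34.2% ± 2.14 at P5 (SD, n = 3), the alpha cluster 21.2% ± 1.12 and 23.7% ± 1.22, and the beta cluster 39.0% ± 1.03 and 42.1% ± 3.17. The shares of the ages did not overlap for gamma and alpha and overlapped for beta, where P5 replicate 8 was at 38.5%. For a single sample the 95% Wilson intervals of these shares reached at most 0.342 percentage points to either side, which covers counting error only and is smaller than the spread between samples.

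Within the gamma cluster, Pcdhgc4 took 12.7%, 11.5% and 15.7% of the reads at E18 and 26.2%, 26.0% and 27.9% at P5. Pcdhac2 took 23.4%, 24.7% and 23.1% of the alpha reads at E18 and 29.1%, 34.5% and 31.7% at P5. No E18 share reached a P5 share in either case. The 5 C-type isoforms together took 15.3% ± 0.426 of all member reads at E18 and 19.8% ± 2.38 at P5, and their summed level at E18 was 0.677 of that at P5.

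How evenly a cluster is used can be given as an effective number of isoforms, the number of equally abundant isoforms that would give the same Shannon entropy of the levels per kilobase. It was 18.18, 18.32 and 17.59 for gamma at E18 and 15.32, 14.95 and 14.74 at P5. For alpha it was 11.23, 11.04 and 11.15 at E18 and 10.48, 9.72 and 10.07 at P5. For beta it went the other way, at 17.41, 17.56 and 17.60 at E18 and 18.34, 18.05 and 18.73 at P5. The ages did not overlap in any cluster, and these numbers describe the pooled cells of a sample and not the choice made by single cells. The alpha and gamma numbers include Pcdhac2 and Pcdhgc4, whose shares differed between the ages as given above. They were not calculated without the C-type isoforms.

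Genes that act on the clusters were examined next. Promoters of the isoforms are opened and looped to distant enhancers by the zinc finger protein CTCF and the cohesin ring, and are silenced by DNA methylation and by Smchd1. Of 23 such chromatin regulators 12 were higher and 3 lower at E18, 65.2% beside 43.4% of all genes tested, with a median log2 fold change of 0.29. Ctcf was at 131, 136 and 120 CPM at E18 and at 94.1, 111 and 81.1 CPM at P5 (0.43 ± 0.12, adjusted p = 0.0212 by edgeR). Its adjusted p was 0.0608 without E18 replicate 1, 0.0778 without E18 replicate 3, 0.0719 without P5 replicate 6 and 0.0542 without P5 replicate 9. The cohesin subunit Rad21 was at 196 to 207 CPM at E18 and 154 to 200 CPM at P5 (0.22 ± 0.11, adjusted p = 0.132), and it passed without P5 replicate 8 (0.31, adjusted p = 0.0169). Wapl, which releases cohesin from DNA, was higher at E18 (0.60 ± 0.14, adjusted p = 0.00914).

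The methyltransferases of new DNA methylation went in opposite directions. Dnmt3b, known to methylate isoform promoters in the early embryo, was at 7.79, 7.47 and 6.71 CPM at E18 and at 3.81, 4.10 and 2.23 CPM at P5 (log2 fold change 1.11 ± 0.24, adjusted p = 0.00616 by edgeR). Dnmt3a was at 143, 142 and 152 CPM at E18 and at 246, 240 and 359 CPM at P5 (-0.95 ± 0.15, adjusted p = 0.00185). Smchd1 overlapped between the ages, at 146 to 170 and 114 to 147 CPM (0.23 ± 0.12, adjusted p = 0.135). The histone methyltransferase Ehmt1 and its partner Wiz were higher at E18 (0.63 ± 0.12 and 0.54 ± 0.12, adjusted p = 0.00335 and 0.00735).

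Rest, a repressor of neuronal genes that also binds the enhancer of the alpha cluster, was at 20.5, 18.41 and 12.4 CPM at E18 and at 6.24, 10.8 and 4.68 CPM at P5 (1.24 ± 0.30, adjusted p = 0.0115 by edgeR, and 0.0586 without P5 replicate 6). Its level was highest in the E18 samples that also held the most progenitor markers, replicates 1 and 3, and the part of those cells in its change was not tested.

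**Figure D5:**
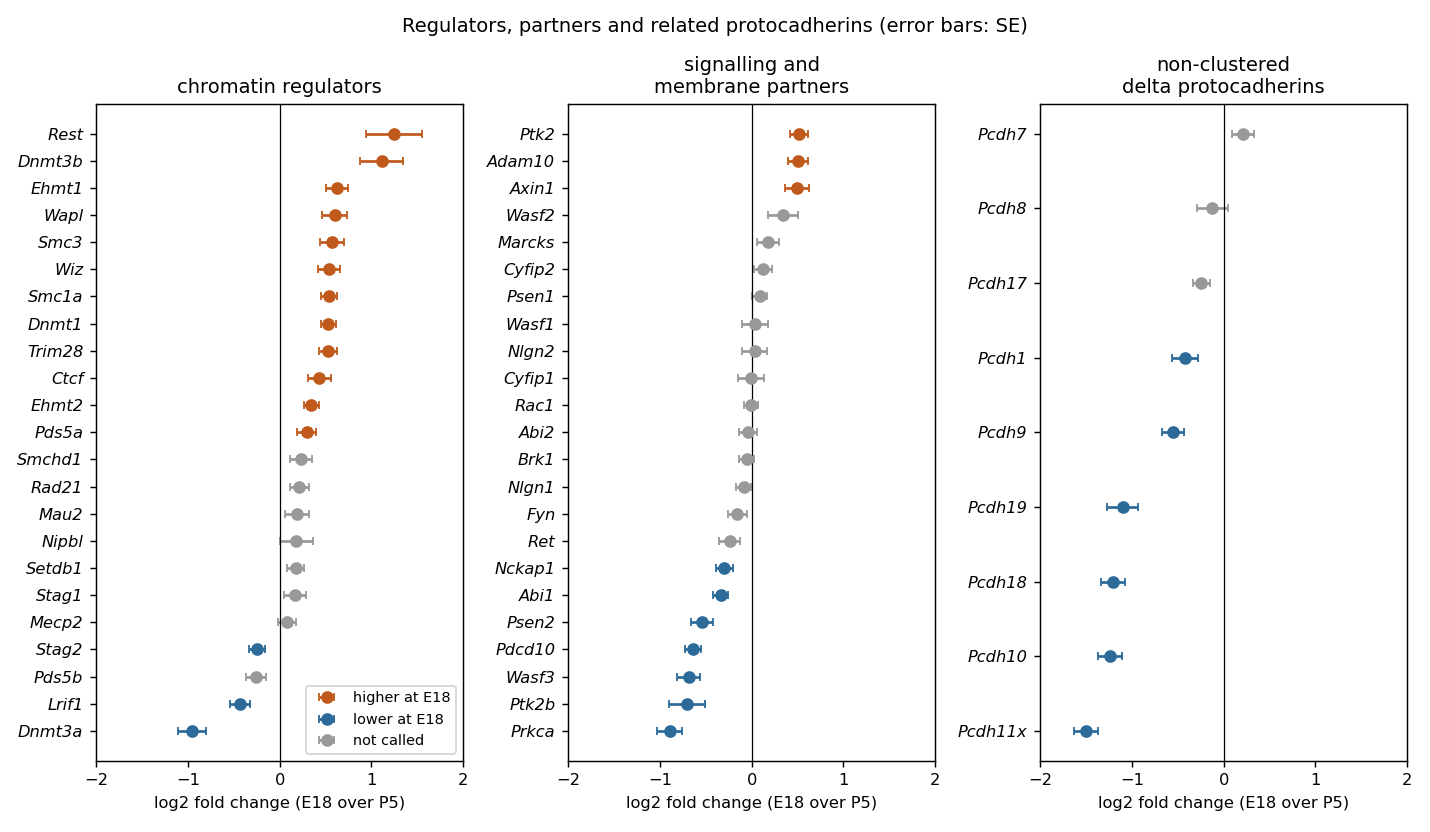
Log2 fold change of E18 over P5 (horizontal axes) of 23 chromatin regulators, 23 signalling and membrane partners and 9 non-clustered delta protocadherins, with the standard error of the edgeR fit as bars and colour for the call at an adjusted p under 0.05. Calls lie mostly to the right among chromatin regulators (12 higher, 3 lower) and to the left among partners (3 higher, 7 lower) and delta protocadherins (0 higher, 6 lower).

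Among 23 proteins that bind, cleave or act below the protocadherins at the membrane, 3 were higher and 7 lower at E18, 43.5% and so near the 43.4% of all genes tested, with a median log2 fold change of -0.04. Prkca, a kinase that phosphorylates the shared gamma end, was at 40.7, 40.7 and 45.5 CPM at E18 and at 79.0, 64.8 and 92.2 CPM at P5 (-0.89 ± 0.13, adjusted p = 0.00137 by edgeR). Prkca also marks rod bipolar cells, whose 9 markers summed to 56.3 to 81.9 CPM at E18 and 84.6 to 116 CPM at P5 with Prkca as the largest part. Ptk2b, a focal adhesion kinase that protocadherins inhibit, was at 1.86, 1.77 and 1.78 CPM at E18 and 2.92, 2.57 and 3.31 CPM at P5 (-0.70 ± 0.20, adjusted p = 0.0193). It missed the threshold without E18 replicate 1, 3 or 4 (0.0504, 0.0796 or 0.0537) and without P5 replicate 9 (0.0584). Its relative Ptk2 was higher at E18 (0.51 ± 0.10, adjusted p = 0.00403), as were the protease Adam10 and Axin1. Of the WAVE complex, which binds the shared alpha end and drives actin branching, Wasf3, Nckap1 and Abi1 were lower at E18 (-0.69, -0.30 and -0.34), and Wasf1, Wasf2, Cyfip1, Cyfip2, Abi2 and Brk1 did not pass. Ptk2, Adam10, Axin1, Nckap1 and Abi1 were named after their values were seen.

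Genes beside the clusters were not all alike. Of 5 neighbours, Taf7 and Slc25a2, which lie between the beta and gamma clusters, were higher at E18 (log2 fold change 0.74 ± 0.11 and 1.46 ± 0.36, adjusted p = 0.00129 and 0.0119 by edgeR). Taf7 was at 44.3 to 48.2 CPM at E18 and 24.4 to 29.6 CPM at P5. The beta genes nearest to it, Pcdhb16 to Pcdhb22, had a median log2 fold change of 0.02 and no call. Of the gamma genes on its other side, 9 were higher and 2 lower at E18. Zmat2, Diaph1 and Hdac3, which flank the whole locus, did not pass, so 40% of the neighbours were called, near the 43.4% of all genes tested. Of 9 protocadherins outside the clusters, of the delta type, 6 were lower at E18 and none was higher, with a median of -0.55. That is 66.7% called, beside 43.4% of all genes tested (22.5% lower). The falls of Pcdh10, Pcdh11x, Pcdh18 and Pcdh19 (-1.24, -1.50, -1.21 and -1.10) were named after their values were seen.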

How the data were processed

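The authors prepared libraries with ribosomal RNA depletion, whereas the labels name polyA RNA, sequenced 100-base paired reads, used STAR for alignment to mm10 and HT-seq for counting on RefSeq genes. They deposited raw read counts per gene, which were the values used here. The normalized counts, a signal scaled per library by the authors, and their log2 fold changes and p-values with false discovery rates were deposited too and not used. Strand, overlap and multimapping settings are not given in the sources used here.

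Counts of 3 E18 and 3 P5 samples were filtered by expression, normalized by TMM and tested over all 16449 genes in R 4.3.3 with edgeR 4.0.16 (quasi-likelihood fit and F test). P-values were adjusted after Benjamini and Hochberg, and 0.05 was the threshold. CPM were taken on TMM library sizes, and standard errors follow from the fold change and its F statistic. Each sample had 81213639 to 114512853 reads. Samples of one age differed by a chi-square of 26.0 to 121 per degree of freedom, far above sampling noise, so replicate spread and not depth limits most values. On simulated counts of this comparison (16322 genes) edgeR recovered 133 of 198 changed genes with 14 false calls. All planted changes had the same size, with a median absolute log2 fold change of 1.01 among those recovered. Most called members changed less, so this is not the recovery to be counted on for them. The simulation also changed far fewer genes than the 43.4% called in the data. Exons were those of GENCODE transcripts matched by RefSeq accession, with gene ends from RefSeq (GRCm38.p6).

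The named members are the C-type isoforms, the 3 highest and 2 lowest per kilobase of each cluster, the largest called rises and falls (up to 3), and called members against their cluster's majority. Of the regulators and partners they are Ctcf, Rad21, Smchd1, Dnmt3b, Wiz, Rest and the 4 largest called rises and falls. Members, lists and tests were chosen with earlier results of these data known. Alternatives were DESeq2 1.42.0, edgeR's exact test, other normalizations and filters, other level scales and leaving out each sample.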

Additional observations from a re-analysis of the deposited data

How the results depend on the processing

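No paired analysis was possible because the ages share no replicate numbers. Leaving out one sample at a time moved the called members from 26 to between 13 and 30, alpha calls from 4 to between 1 and 4, gamma calls from 11 to between 4 and 12, gamma calls higher at E18 from 9 to between 3 and 10, and gamma calls lower at E18 from 2 to between 1 and 2. Beta calls stayed between 8 and 14, and the fewer samples in these fits also lowered the calls over all genes, except without P5 replicate 8. With E18 replicate 4 alone against P5, chosen after the data were seen, 3 members were called, of which 0 alpha, 2 beta (both lower, 0 higher) and 1 gamma (0 higher, 1 lower), with 1 C-type isoform and 1 of the regulators and partners, against 25 with all samples. Lower gamma calls were 1 in edgeR's exact test and 1 without a filter on low counts, where Pcdhga6 missed the threshold. With CPM in place of CPM per kilobase, the effective number of isoforms, E18 minus P5, was -1.23 for beta (-0.85 per kilobase) and 3.38 for gamma (3.03). Signs reversed only among uncalled members near 0: among the named genes, Pcdhb17 ran from -0.0602 to 0.0338 over single samples left out, Pcdhb22 from -0.0057 to 0.0805 and Pcdhgb6 from -0.0011 to 0.22, against -0.01, 0.04 and 0.12 with all samples. Of 419 comparisons over 35 named genes, 378 kept sign and side of the threshold, 32 lost the call and 5 gained it. The median of all genes stayed between -0.0157 and 0.0129 in all settings. Pcdhb1 was not tested with a minimum of 1 CPM in 3 samples.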
